A study of Mus musculus with 18 samples.

Results

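Ly49 receptors are a family of C-type lectin-like proteins on the surface of mouse natural killer cells, encoded side by side by the Klra genes in the natural killer gene complex. Klra1 (Ly49A), Klra3 (Ly49C), Klra7 (Ly49G) and Klra9 (Ly49I) encode inhibitory receptors, which bind MHC class I on other cells and recruit the phosphatase SHP-1 through a tyrosine motif in their cytoplasmic tail. Klra4 (Ly49D) and Klra8 (Ly49H) encode activating receptors, which lack that motif and signal through the adaptor DAP12, and Ly49H recognises a cytomegalovirus protein. These 6 genes were followed here by taking all probe sets whose gene symbol in the platform annotation names at least 1 of them. The rule found 9 of the 36701 probe sets in the series, on which these 6 genes are among 17004 named. All 9 were on the array type U74A.

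Transcript levels were measured in 3 populations from mouse spleen. The control was conventional dendritic cells (cDC), and the others were plasmacytoid dendritic cells (PDC) and interferon-producing killer dendritic cells, abbreviated IKDC. Each population had 2 samples, prepared separately according to the series design, and each of the 6 samples was hybridised to 3 Affymetrix array types, which gave 18 arrays. The strain, genotype, age and treatment of the mice, whether animals were pooled, and the markers used to sort the cells are not given in the sources used here. Signal intensities are linear and were set by the authors to the same target of 150 on every array.

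The arrays separate these 6 genes only in part. Of the 9 probe sets, 3 carried a single symbol, 1 for Klra3 and 2 for Klra7. The other 6 listed several Klra symbols and are described for the family only. Of the 6 genes, 2 thus had a probe set of their own, and Klra1, Klra4, Klra8 and Klra9 were covered by shared probe sets alone. Another 3 probe sets carried the single symbol of a further Ly49 gene, Klra2 (Ly49B), Klra5 (Ly49E) or Klra6 (Ly49F). Klra17 (Ly49Q), a family member known on plasmacytoid cells, had no probe set with a single symbol. Of these 12 probe sets, 10 have a name ending in _f_at, with which the manufacturer marks probes shared by members of a gene family. A signal on such a probe set can come from more than 1 gene, so single symbols are given below as the annotation lists them.

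The populations were checked against 1 defining gene each. Ncr1, an activating receptor of natural killer cells, had signals of 1357.3 and 1608.1 in IKDC, 38.8 and 40.1 in cDC, and 84.2 and 60.9 in PDC. Itgax, the integrin CD11c of dendritic cells, had signals of 1248.9 and 1358.9 in IKDC, 1556.1 and 2614.2 in cDC, and 238.4 and 338.7 in PDC. Siglech, a lectin of plasmacytoid cells, had signals of 7189.9 and 6513.5 in PDC and of at most 156.8 elsewhere. Ncr1 was thus high in both IKDC samples, Siglech in both PDC samples, and Itgax in IKDC and cDC. Itgax does not stand for the other markers of conventional dendritic cells, which are described below. Of 9 such markers tested, Itgax included, 7 were called lower in IKDC than in cDC and 0 higher. Over all genes tested, 4.07% were called lower. Itgax and Zbtb46 were not called. Among the 7, Flt3 had mean signals of 269.5 in IKDC and 2547 in cDC. On U74A the correlation of 2 samples, as log2 signals over probe sets, was 0.886 to 0.953 within a population and 0.73 to 0.814 between populations. On U74B it was 0.812 to 0.876 within and 0.707 to 0.77 between. On U74C it was 0.785 to 0.827 within and 0.737 to 0.817 between, so the ranges overlapped there.

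A promoter is shown as a description, since the Klra genes lie in a row on chromosome 6. Whether these sequences have a part in the Ly49 signals described below was not tested. RefSeq (GRCm38.p6) gave an upstream sequence for 11 Ly49 genes, all 6 of the genes followed here among them. The genes shown are on the minus strand. The 250 bases before the RefSeq start of Klra3 are printed first, 5′ to 3′. They are followed by a 60-base window of each of Klra9, Klra7, Klra4 and Klra8 and, for comparison, Klra6. Capitals mark a stretch that these genes share.
Klra3, chr6:130337627-130337876: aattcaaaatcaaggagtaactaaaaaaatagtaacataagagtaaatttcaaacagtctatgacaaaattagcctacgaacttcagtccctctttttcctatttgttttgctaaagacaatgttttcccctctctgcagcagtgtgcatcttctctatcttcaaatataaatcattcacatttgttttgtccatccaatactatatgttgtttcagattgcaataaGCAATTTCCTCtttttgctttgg
Klra9, chr6:130193132-130193191: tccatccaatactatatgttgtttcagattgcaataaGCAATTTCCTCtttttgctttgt
Klra7, chr6:130233393-130233452: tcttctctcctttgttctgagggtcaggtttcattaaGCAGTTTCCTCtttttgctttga
Klra4, chr6:130067332-130067391: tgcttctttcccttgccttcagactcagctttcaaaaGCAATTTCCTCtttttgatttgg
Klra8, chr6:130129960-130130019: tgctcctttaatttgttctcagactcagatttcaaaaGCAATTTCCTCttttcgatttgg
Klra6, chr6:130027055-130027114: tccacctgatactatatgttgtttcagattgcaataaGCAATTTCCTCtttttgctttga

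The stretch GCANTTTCCTC, with any base at N, was the longest run of the Klra3 sequence with at most 1 undefined base that at least 9 of the 11 Ly49 sequences held. An overlapping run of the same length, TTTCCTCNTTT, did so too. Both were sought with these sequences in view, so the frequency is a description. The first was present in 9 of the 11 Ly49 sequences, 5 of them from the 6 genes followed, against 38 of 32851 upstream sequences in all (0.116%). The 32851 can hold more than 1 sequence of a gene, and the 38 include Ly49 sequences. For the Ly49 genes 1 sequence per gene was kept, from 13 given for the 11 genes. Klra1 and Klra10 did not hold the stretch. It was also present upstream of Klra5 and Klra6, whose probe sets did not pass a test, of Klra2, whose probe set was not tested, and of Klra17. The last 60 bases before the start of Klra3 differed from the aligned window of Klra9 at 1 base, from that of Klra6 at 4 bases and from that of Klra7 at 22 bases. Compared end to end over the upstream bases, Klra4 and Klra8 were 84.5% identical, Klra3 and Klra9 83.3%, and Klra3 and Klra7 37.9%. The stretch ended 13 bases before the start of Klra3 and 83 bases before that of Klra7, so like positions of this pair lie at different distances from the start.

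3 short motifs of transcription factors active in lymphocytes were searched for on both strands. The Runx motif TGTGGT was present in 14.0% of all upstream sequences and in 1 of the 6 genes followed, Klra1, starting 201 bases before its start. The TCF/LEF motif CTTTGA was present in 13.8% of all sequences and in Klra7 and Klra6 of the 11 Ly49 genes. The T-box motif AGGTGT was present in 11.8% of all sequences and in 0 of the 11. No match says only that these letters are not in this window. The 3 motifs did not overlap the shared stretch.

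**Figure D1:**
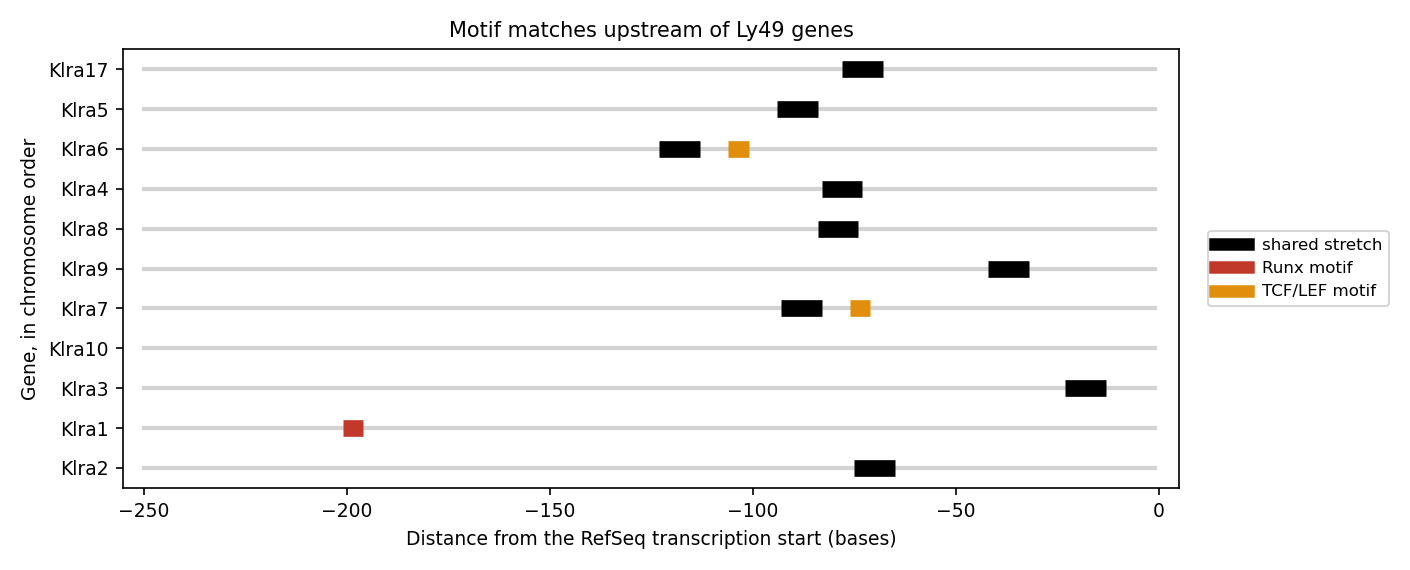
Each line is the 250 bases before the RefSeq start of 1 Ly49 gene, with genes in chromosome order from top to bottom and the distance from the start in bases on the horizontal axis. Black bars mark the shared stretch, found in 9 of the 11 genes, red the Runx motif in Klra1 and orange the TCF/LEF motif in Klra6 and Klra7.

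Ly49 transcripts were high in IKDC and low in the other populations. Of the 9 probe sets, 8 reached a signal of 60 on at least 2 of the 6 arrays and were tested with limma on log2(signal + 16), and the p-values were adjusted (Benjamini-Hochberg) over the 23285 probe sets tested in the series. All 8 passed as higher in IKDC than in cDC, where 2.68% of all probe sets tested passed in that direction, and all 8 passed as higher in IKDC than in PDC, where 2.06% did. In PDC versus cDC 0 of 8 passed. 4 of the 8 reached 60 on at most 1 of the 4 cDC and PDC arrays and so entered the test through their IKDC signal, which makes the count of 8 a description. The other 4, for Klra3, Klra7 (97761_f_at), Klra9/Klra3 (93894_f_at) and Klra9/Klra8, reached it on at least 3 of those 4 arrays. In bulk samples a larger share of cells with a transcript and more transcript per cell cannot be told apart. The comparisons with IKDC share its 2 samples, so they are not independent of each other.

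Klra3, the inhibitory receptor Ly49C, had signals of 3118.3 and 2872.3 in IKDC, 172.7 and 203.6 in cDC, and 177.1 and 105.4 in PDC (probe set 93893_f_at). Both IKDC samples were far above all 4 others, and the cDC and PDC samples overlapped. The mean was 2995 ± 174 in IKDC, 188 ± 21.9 in cDC and 141 ± 50.7 in PDC (SD, n = 2 each). The ratio of means was 15.9-fold over cDC and 21.2-fold over PDC. The log2 difference was 3.89 ± 0.30 (SE, limma adjusted p = 3.2e-05) from cDC and 4.30 ± 0.30 (adjusted p = 1.76e-05) from PDC. Between PDC and cDC it was -0.41 ± 0.30 (adjusted p = 0.623). The signal in cDC and PDC was above 45.2, the highest value of the 15 unspiked bacterial control probe sets on U74A.

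Klra7, the inhibitory receptor Ly49G, was measured by a pair of probe sets. On 97761_f_at the signals were 1140.6 and 949.2 in IKDC, 68.5 and 76.1 in cDC, and 105.4 and 39.6 in PDC. On 97762_f_at they were 755.8 and 698.2 in IKDC, 17.2 and 36.7 in cDC, and 79.8 and 56.3 in PDC. Both probe sets separated the IKDC samples from the rest. The PDC samples lay to either side of the cDC samples on the first probe set and above both on the second. The IKDC mean was 14.5-fold that of cDC on the first. It was at least 12.1-fold higher on the second, where both cDC samples were under 60 and the bound is the geometric mean of the IKDC signals over 60. The log2 differences from cDC were 3.58 ± 0.38 (limma adjusted p = 0.000205) and 4.15 ± 0.35 (adjusted p = 4.42e-05), and those from PDC were 3.69 ± 0.38 (adjusted p = 0.000177) and 3.16 ± 0.35 (adjusted p = 0.000303). Between PDC and cDC they were -0.10 ± 0.38 (adjusted p = 0.947) and 0.99 ± 0.35 (adjusted p = 0.185), so the 2 probe sets differed in sign there and neither passed.

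Klra9, the inhibitory receptor Ly49I, appeared only together with another symbol. On 93894_f_at, shared with Klra3, the signals were 2794.3 and 2854.9 in IKDC, 166.8 and 220.8 in cDC, and 166.4 and 96.9 in PDC. On 94779_f_at, shared with the same gene, they were 1283.4 and 1040.1 in IKDC, 19.9 and 59.2 in cDC, and 90.7 and 47.8 in PDC. Here too every IKDC sample stood above every other sample. The first gave a log2 difference from cDC of 3.77 ± 0.31 (limma adjusted p = 3.93e-05) and from PDC of 4.31 ± 0.31 (adjusted p = 1.8e-05), a ratio of means of 14.6-fold and 21.5-fold. The second gave 4.50 ± 0.40 (adjusted p = 7.36e-05) from cDC, at least 19.3-fold, and 3.83 ± 0.40 (adjusted p = 0.000226) from PDC. Of all 23285 log2 differences between IKDC and PDC, that of 93894_f_at ranked 6 from the top.

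Klra8, the activating receptor Ly49H, shared its probe set 100326_f_at with Klra9. The signals were 612.6 and 686.7 in IKDC, 71.5 and 63.8 in cDC, and 110.7 and 67.4 in PDC. Both IKDC samples were above the rest, and PDC overlapped cDC. The ratio of means was 9.60-fold over cDC and 7.30-fold over PDC. The log2 difference was 2.99 ± 0.32 (limma adjusted p = 0.000225) from cDC and 2.69 ± 0.32 (adjusted p = 0.000463) from PDC. Since Klra9 is an inhibitory receptor gene, this signal cannot be assigned to an activating receptor.

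Klra4, the activating receptor Ly49D, was covered by a pair of shared probe sets. On 100387_f_at, shared with Klra23 and the pseudogene Klra13-ps, the signals were 168.9 and 205.3 in IKDC, 3.1 and 2.5 in cDC, and 10.3 and 10.8 in PDC. The cDC and PDC values lie under the highest unspiked control and have no secure order. The IKDC samples were at least 3.10-fold higher than both other populations, with a log2 difference of 3.43 ± 0.50 (limma adjusted p = 0.00169) from cDC and 2.93 ± 0.50 (adjusted p = 0.00514) from PDC. The sizes depend on the pseudocount, at 5.63 and 4.02 with a pseudocount of 1 and 1.91 and 1.75 with 64, so the bound is the firmer value. These calls rested on having both IKDC samples. Without IKDC replicate 1 the adjusted p was 0.058 from cDC and 0.129 from PDC, without IKDC replicate 2 it was 0.0882 and 0.196, and with a pseudocount of 1 that from PDC was 0.0672. On 94776_f_at, shared with Klra1, the signals were 31.7 and 42.7 in IKDC, 19.7 and 5.8 in cDC, and 16.2 and 10.5 in PDC. All 6 were under 60 and under the highest control, so this probe set was not tested and gives no order.

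Klra1, the inhibitory receptor Ly49A, was listed on 95908_at with Klra16 and Klra22, the second of which is a synonym of Klra1 in the current gene table. The signals were 312.9 and 316.7 in IKDC, 6.4 and 7.1 in cDC, and 38.0 and 25.1 in PDC. The IKDC samples were at least 5.25-fold higher than both other populations. The log2 difference was 3.86 ± 0.40 (limma adjusted p = 0.000197) from cDC and 2.81 ± 0.40 (adjusted p = 0.00164) from PDC. With pseudocounts of 1 and 64 the difference from cDC was 5.35 and 2.42. Without IKDC replicate 1 or 2 the adjusted p from PDC was 0.0661 or 0.0692. This is the only 1 of the 9 probe sets without the family suffix in its name.

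The other Ly49 genes with a probe set of their own showed no called difference. Klra5 had signals of 133.4 and 164.8 in IKDC, 110.6 and 47.2 in cDC, and 91.8 and 46.0 in PDC, with a log2 difference between IKDC and cDC of 0.88 ± 0.43 (limma adjusted p = 0.301). Klra6 had signals of 58.0 and 103.4 in IKDC, 40.5 and 53.9 in cDC, and 68.5 and 25.8 in PDC, with a difference of 0.58 ± 0.48 (adjusted p = 0.564). In both genes the 2 IKDC samples lay above the 2 cDC samples, as they did for 24.9% of all probe sets tested. Klra2 had signals of at most 41.6 on all 6 arrays and was not tested. Whether the difference for Klra5 or Klra6 is smaller than that for Klra3 was not tested.

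**Figure D2:**
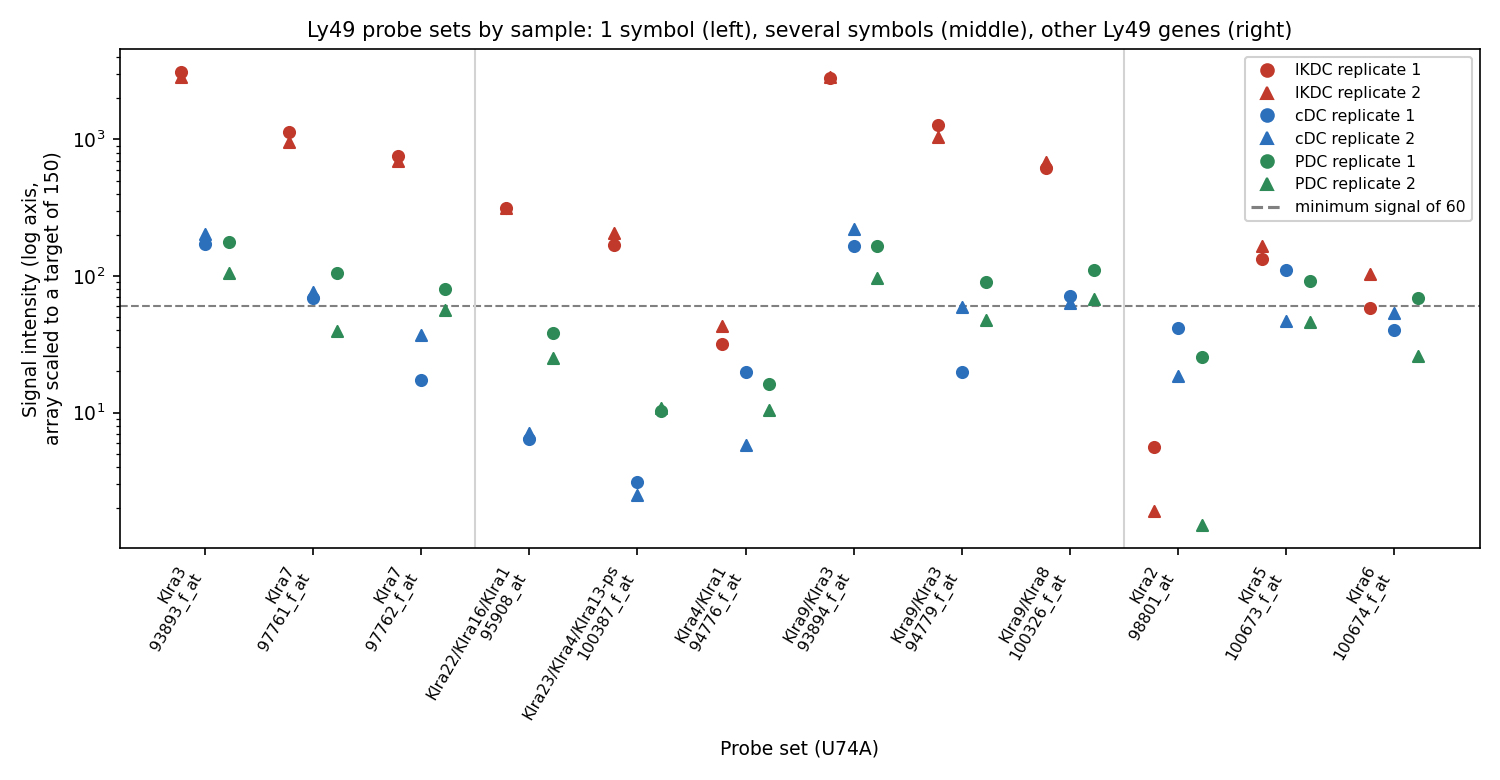
Signal intensity (log axis) of the 12 Ly49 probe sets in each of the 6 samples, with circles for replicate 1 and triangles for replicate 2 of IKDC (red), cDC (blue) and PDC (green), and a dashed line at the minimum of 60. Both IKDC points stand above all others on the 9 left and middle probe sets, 1 of which stays under the line, and the IKDC points of Klra2 lie low.

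Between the populations with low Ly49 signals no probe set passed. In PDC versus cDC 0 of 8 passed with limma. Of all probe sets tested there, 1.73% passed as higher in PDC, 1.92% as lower and 3.65% in either direction. An unadjusted limma p under 0.05 was found for 2 of 8, against 3472 of all 23285 probe sets tested. Those 2 were the Klra7 probe set 97762_f_at and the family-level probe set 95908_at, both with the higher value in PDC. The median log2 difference of the 8 was 0.40, against -0.01 over all probe sets tested. Both PDC samples lay above both cDC samples on 3 of the 8, where 20.5% of all probe sets tested did. They lay below both cDC samples on 1 of the 8, against 4850 of all 23285 probe sets tested. In all 3 of the higher cases both cDC samples were under 60, and in 2 of them every cDC and PDC value was under the highest unspiked control. An adjusted p above 0.05 with 2 samples in each group does not show that the populations were alike.

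**Figure D3:**
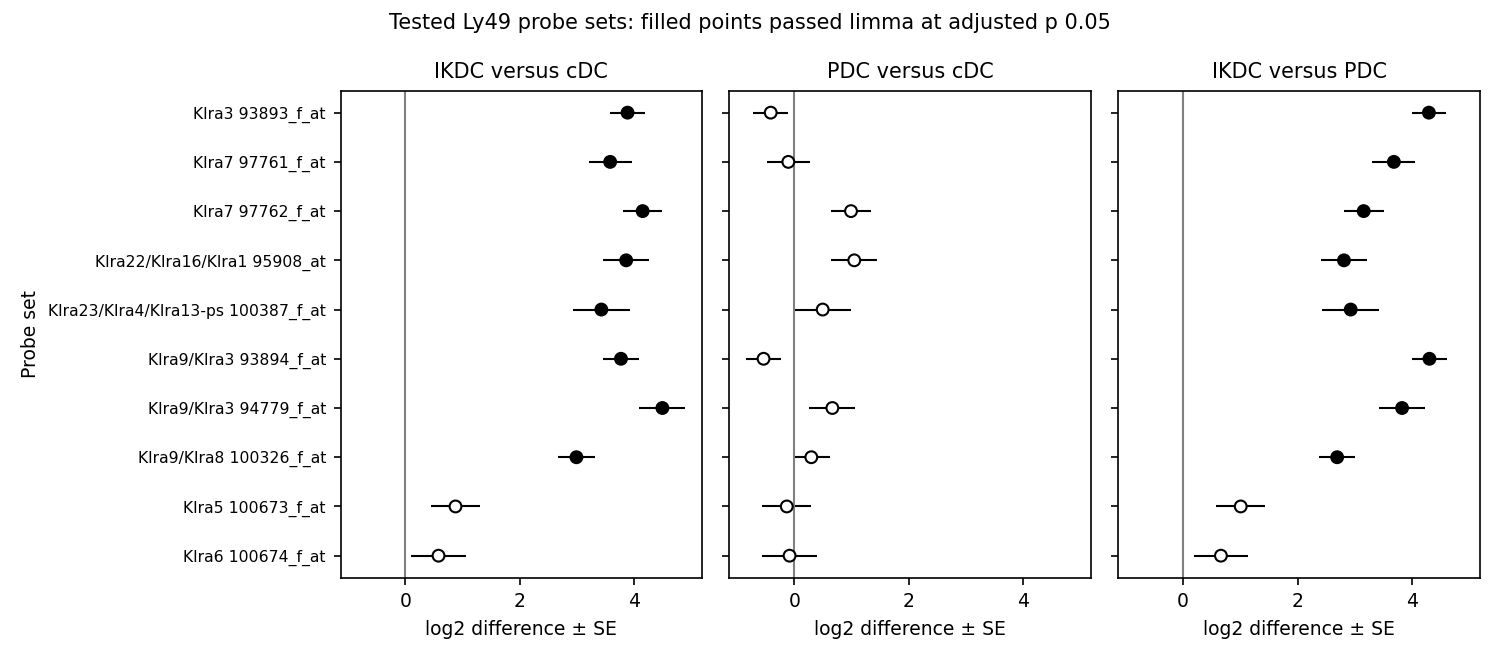
Log2 difference (point) and its standard error (line) of the 10 tested Ly49 probe sets in each comparison, on the log2(signal + 16) scale, with filled points past a limma adjusted p of 0.05. The 8 probe sets of the genes followed lie between 2.69 and 4.50 in the comparisons of IKDC, and all points in PDC versus cDC are open.

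Over the 8 tested probe sets the widest gap between the 2 samples of a population was smallest in IKDC. The higher sample was 1.01 to 1.23 times the lower in IKDC, 1.11 to 2.98 times in cDC and 1.05 to 2.66 times in PDC. The widest gap in cDC was between 19.9 and 59.2 on 94779_f_at, both under 60. In PDC it was between 105.4 and 39.6 on 97761_f_at. These probe sets had much higher signals in IKDC, and the part of signal level in the gaps was not tested. The samples of PDC also differed in 1 direction. PDC replicate 1 was above replicate 2 on 11 of the 12 Ly49 probe sets, against 53.0% of all 7081 probe sets tested on U74A. In IKDC and in cDC replicate 1 was above on 5 of the 12. For Gapdh, the signal of the 3′ control probe set over that of the 5′ one, a measure of RNA integrity and amplification, was 6.0 in PDC replicate 1 and 3.19 in PDC replicate 2, and its part in this gap was not tested. In IKDC it was 3.34 and 3.59, and in cDC 4.74 and 4.13.

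Within a sample, the signal of other probe sets was set against that of Klra3 (93893_f_at), as log2 ratios of signals with 16 added. For the Klra9/Klra8 probe set the ratio was -2.32 and -2.04 in IKDC, -1.11 and -1.46 in cDC, and -0.61 and -0.54 in PDC. The populations did not overlap, with or without the added 16, and IKDC was lowest. The Klra9/Klra8 signals in cDC and PDC were only 63.8 to 110.7, close to the minimum of 60. How often other pairs of probe sets separate the populations in this way was not counted. For the Klra9/Klra3 probe set 94779_f_at the ratio was -1.27 and -1.45 in IKDC, -2.39 and -1.55 in cDC, and -0.86 and -0.93 in PDC. Here cDC was lowest, on signals under 60. For Klra7 (97761_f_at) it was -1.44 and -1.58 in IKDC, -1.16 and -1.25 in cDC, and -0.67 and -1.13 in PDC. Without the added 16, a choice made after seeing the data, PDC replicate 2 (-1.41) lay between the cDC samples (-1.33 and -1.42), and its Klra7 signal was under the highest unspiked control. The ratios of different probe sets to Klra3 thus ordered the populations differently. The Klra9/Klra3 probe set 93894_f_at followed Klra3 closely, at log2 ratios between -0.16 and 0.11 in all 6 samples. With 2 samples against 2 the exact permutation test (two-sided) cannot go below 0.333, which is the value it gave in each of the 3 comparisons of populations for Klra9/Klra8, 94779_f_at and Klra7 with 16 added.

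Genes whose log2 signals followed a member most closely across the 6 samples were also sought among 12189 genes. For Klra3 they were Sipa1 (Pearson r = 0.9984), Chl1 (0.9976) and Gimap4 (0.997). For Klra7 they were Cd2 (0.9977), Gfm2 (0.9969) and Rab27b (0.9968). Gimap4, a GTPase of lymphocytes, had signals of 5177.3 and 5371.6 in IKDC, 303.1 and 335.3 in cDC, and 399.0 and 228.2 in PDC. Cd2, an adhesion molecule of T and natural killer cells, had signals of 1937.1 and 1300.0 in IKDC, at most 71.8 in cDC, and 127.7 and 32.7 in PDC. The 6 samples form 3 populations, so a high r means little more than a high level in IKDC, and 170 genes exceeded 0.95 with Klra3.

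Genes that act with Ly49 receptors were described from lists, with 1 probe set per gene. Over all 12193 genes tested, 3.5% passed as higher and 4.07% as lower in IKDC than in cDC, and the median log2 difference was 0.01. In PDC versus cDC 2.25% passed as higher and 2.75% as lower, and in IKDC versus PDC 2.71% and 3.17%.

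Ly49 ligands did not pass in any comparison. Of 3 measured genes of MHC class I, H2-K1 had signals of 9094.4 and 7467.6 in IKDC, 7507.5 and 7784.1 in cDC, and 7943.6 and 7045.1 in PDC. H2-D1 had signals of 8685.4 and 7348.9 in IKDC, 3788.7 and 7551.5 in cDC, and 7790.0 and 6745.8 in PDC. The log2 differences between IKDC and cDC were 0.11 ± 0.27 (limma adjusted p = 0.878) for H2-K1 and 0.58 ± 0.34 (adjusted p = 0.403) for H2-D1. Both are closely related to other class I genes, so their signals may be shared.

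Of 6 tested genes for signalling of inhibitory receptors, 1 was higher and 1 lower in IKDC than in cDC, with a median log2 difference of -0.58. The higher was Fyn, a kinase of the Src family, at 1951.9 and 1636.0 in IKDC, 203.8 and 240.7 in cDC, and 1335.7 and 2558.1 in PDC. Its log2 difference from cDC was 2.92 ± 0.33 in IKDC (limma adjusted p = 0.000302) and 2.97 ± 0.33 in PDC (adjusted p = 0.000415), so it was not high in IKDC alone. The lower was Src, at -1.47 ± 0.36 (adjusted p = 0.0448), a call that ended without either IKDC or either cDC sample (adjusted p 0.101 to 0.273) and under 6 other alternatives. Ptpn6, which encodes the phosphatase SHP-1, is named after its values were seen because Ly49 inhibition runs through it. It had signals of 518.5 and 378.0 in IKDC, 829.7 and 1116.2 in cDC, and 1051.8 and 1645.3 in PDC, with IKDC the lowest. Its log2 difference was -1.09 ± 0.31 from cDC (adjusted p = 0.0722), and -1.54 ± 0.31 from PDC (adjusted p = 0.0161), the 1 gene of the list that passed between IKDC and PDC. The difference from cDC passed under 6 alternatives (adjusted p 0.0313 to 0.048), which were the replicate block, a filter at 200, only the 2 groups compared, adjustment within array types and leaving out either PDC sample. Without IKDC replicate 1, IKDC replicate 2 or PDC replicate 2 the p from PDC was 0.0502, 0.181 or 0.0883, and it was 0.0865 with median centring and 0.0543 without an intensity trend.

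Of 17 tested genes for signalling of activating receptors, 2 were higher and 0 lower in IKDC than in cDC, with a median of -0.04. Zap70, a kinase that binds phosphorylated adaptors, had signals of 1046.1 and 1311.4 in IKDC, 170.0 and 59.6 in cDC, and 184.7 and 143.3 in PDC, a log2 difference from cDC of 3.32 ± 0.40 (limma adjusted p = 0.000467). Hcst, which encodes the adaptor DAP10, had signals of 1319.2 and 1679.8 in IKDC, 358.6 and 120.3 in cDC, and 347.9 and 306.8 in PDC, a difference of 2.74 ± 0.42 (adjusted p = 0.00394). Both adaptor and kinase were above all other samples in IKDC. Tyrobp, which encodes the adaptor DAP12, is also named after its values were seen. Its signals were 2930.6 and 2952.8 in IKDC, 3524.7 and 1867.1 in cDC, and 6613.9 and 5602.9 in PDC. The 2 IKDC samples lay between those of cDC, and both PDC samples were above the rest. No difference of Tyrobp passed, with log2 values of 0.20 ± 0.32 in IKDC versus cDC (adjusted p = 0.802), 1.24 ± 0.32 in PDC versus cDC (adjusted p = 0.062) and -1.05 ± 0.32 in IKDC versus PDC (adjusted p = 0.114). With the replicate number as a block the last 2 passed (adjusted p = 0.00965 and 0.0289). PDC versus cDC also passed with a filter at 200 (adjusted p = 0.0403), with adjustment within each array type (adjusted p = 0.0378) and without cDC replicate 1 (adjusted p = 0.026), and without cDC replicate 2 IKDC versus PDC did (adjusted p = 0.0499).

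Other receptors encoded in the natural killer gene complex were higher in IKDC in 6 of 12 tested genes and lower in 0, with a median of 1.80. Klrd1, which encodes CD94, had signals of 2949.5 and 3050.6 in IKDC, 360.0 and 362.4 in cDC, and 778.3 and 876.7 in PDC. Its log2 difference between IKDC and cDC was 2.999 ± 0.254 (limma adjusted p = 4.98e-05). It was also the 1 gene of the list called higher in PDC than in cDC, by 1.16 ± 0.25 (adjusted p = 0.028), and that call ended without any 1 of the 6 samples (adjusted p 0.0585 to 0.127), and with median centring, only the 2 groups compared or no intensity trend (0.0629 to 0.0842). Klrk1, which encodes the activating receptor NKG2D, was 2.89 ± 0.25 higher in IKDC than in cDC (adjusted p = 0.00015), Klre1 3.08 ± 0.32 (adjusted p = 0.000375) and Klrb1a 2.78 ± 0.33 (adjusted p = 0.000465). Klrg1, an inhibitory receptor for cadherins, was 2.28 ± 0.40 higher (adjusted p = 0.00573). Its adjusted p was 0.0517 without IKDC replicate 1, 0.0567 without IKDC replicate 2 and 0.0504 without cDC replicate 2.

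Of 10 tested transcription factors tied to Ly49 expression, 2 were higher in IKDC than in cDC and 0 lower, with a median of 0.96. Eomes, a T-box factor of natural killer cells, had signals of 1210.7 and 1316.3 in IKDC and of at most 46.2 in the other 4 samples, at least 21.0-fold higher in IKDC, with a log2 difference from cDC of 4.82 ± 0.34 (limma adjusted p = 2.58e-05). Ets1 had signals of 721.8 and 803.0 in IKDC, 175.7 and 106.2 in cDC, and 328.9 and 233.6 in PDC, a difference of 2.34 ± 0.38 (adjusted p = 0.00463), and the p was 0.0613 without IKDC replicate 2. Eomes here and Klrb1a among the receptors reached 60 only in IKDC and so entered the test through it, which limits the counts of 2 and of 6 as it does for the Ly49 probe sets.

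**Figure D4:**
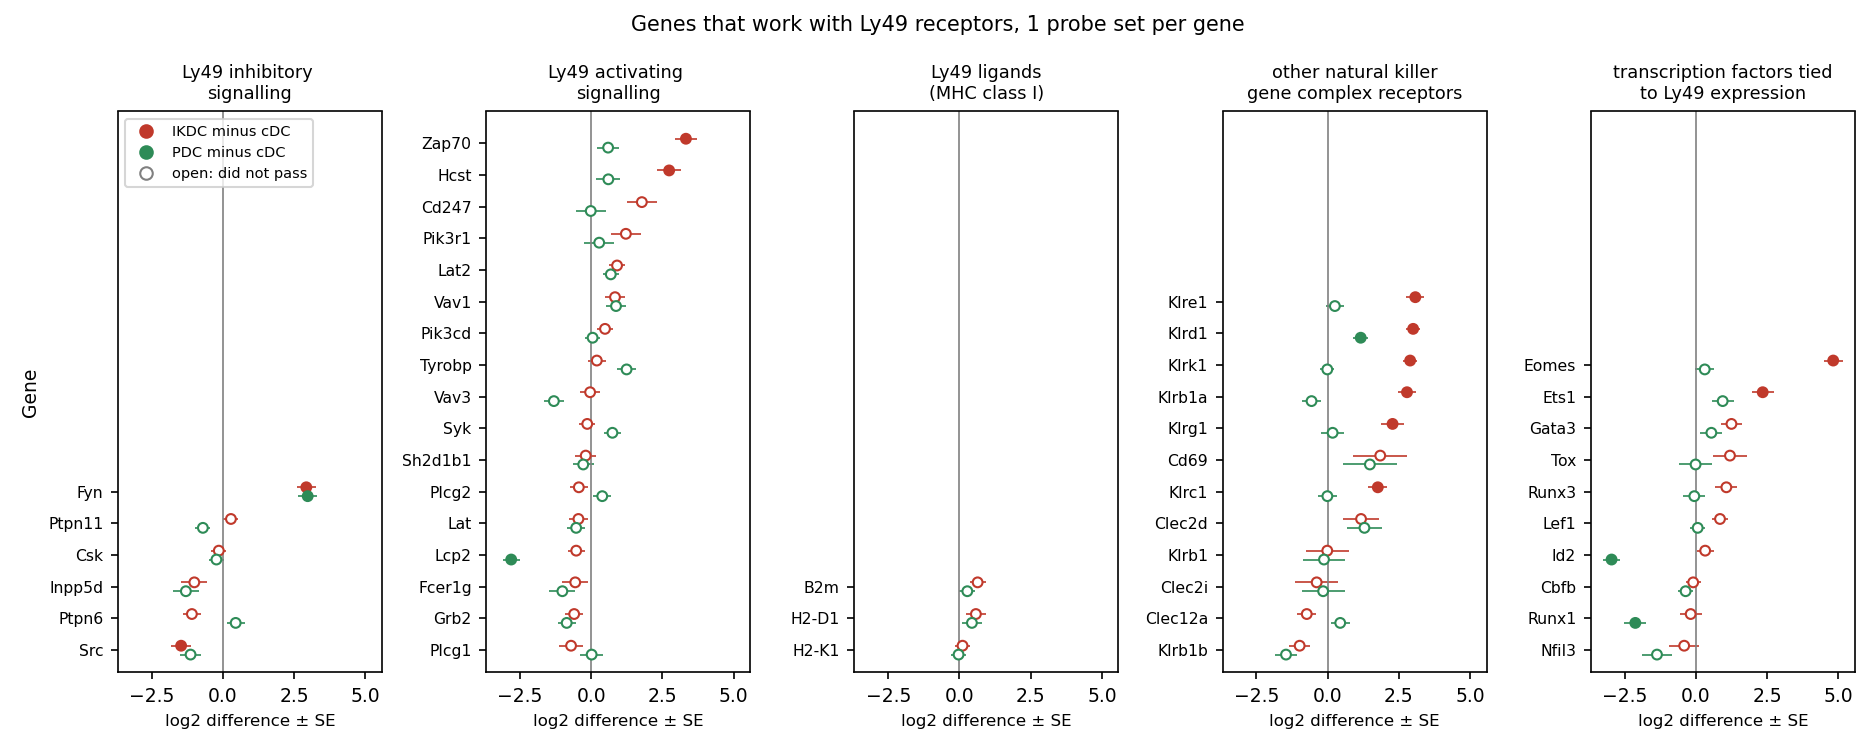
Log2 difference (point) and its standard error (line) of IKDC minus cDC (red) and PDC minus cDC (green) for genes of 5 lists, 1 probe set per gene, with filled points past a limma adjusted p of 0.05. Zap70, Hcst, Eomes and 6 receptors of the natural killer gene complex are filled in red, while the 3 ligand genes are open and Fyn is filled in both colours.

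Markers of several cell types also differed between the populations, and their part in the Ly49 differences was not tested. Of 7 tested markers of natural killer cells, 7 were higher in IKDC than in cDC, 1 of which (Eomes) entered the test through IKDC. Their summed signal on U74A (5 genes) was 10606.0 and 10417.4 in IKDC, 665.5 and 726.2 in cDC, and 1535.3 and 1259.6 in PDC. The sum thus followed the Ly49 signal in IKDC and was higher in PDC than in cDC. Of the 7 markers only 1, Klrd1, passed in PDC versus cDC. The log2 differences of the others there were 0.87 (Gzma), 0.66 (Ncr1), 0.31 (Eomes), 0.09 (Il2rb), 0.05 (Prf1) and -0.01 (Klrk1). Of 9 markers of conventional dendritic cells, 7 were lower in IKDC than in cDC. The summed signal of the 9 was 6194.3 and 4743.9 in IKDC, 49099.1 and 42196.0 in cDC, and 24933.0 and 24158.3 in PDC. Most of this sum was H2-Aa, Cd74 and H2-Ab1, so it says little of the other markers. In PDC versus cDC 4 of the 9 passed as lower and 0 as higher. The 4 were Cd74, Itgax, Batf3 and Xcr1. Of 8 markers of plasmacytoid cells, 8 were higher in PDC than in cDC, and 1 was higher and 1 lower in IKDC than in cDC.

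Among markers of other cells, 2 of 5 T cell markers were higher in IKDC than in cDC, with summed signals (4 genes) of 1179.2 and 749.9 in IKDC, 607.6 and 532.2 in cDC, and 853.0 and 1119.8 in PDC. One of these was Cd3g, a chain of the T cell receptor complex, at 466.5 and 172.9 in IKDC and at most 66.2 elsewhere. It entered the test through its IKDC signal, which limits the count of 2. The other was Cd28, at 359.9 and 307.0 in IKDC, 56.8 and 46.7 in cDC, and 183.0 and 223.2 in PDC. Cd3d, Cd4 and Lat did not pass between IKDC and cDC, at log2 differences of 0.41, -0.87 and -0.45. Cd4 passed as lower in IKDC than in PDC (-1.88 ± 0.36, limma adjusted p = 0.0108). Erythroid markers were higher in IKDC than in cDC in 3 of 5 genes, with summed signals (3 genes) of 14210.7 and 16773.1 in IKDC, 671.9 and 1660.7 in cDC, and 22261.6 and 9364.9 in PDC. Most of this sum was Hba-a1, a globin chain, at 12059.9 and 13455.5 in IKDC, 515.8 and 1348.3 in cDC, and 21120.7 and 8068.0 in PDC. The 1 erythroid marker called between IKDC and PDC was Car2, a carbonic anhydrase, higher in IKDC by 1.40 ± 0.30 (limma adjusted p = 0.0193). Of 6 B cell markers 0 passed with limma in IKDC versus cDC. In that comparison 6 of 8 markers of macrophages and monocytes and 2 of 5 neutrophil markers were lower in IKDC.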

How the data were processed

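The deposited values are signal intensities that the authors computed with GCOS 1.1.1 at default settings and scaled to a target of 150 on each array, per the labels. MAS 5 is named in the submitters' processing notes. RNA was amplified in a pair of rounds, per the labels' protocols. Scaling to 1 target assumes a like total signal in all samples. Depth does not apply to arrays, whose number limits the precision.

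Each array type was fitted apart with limma 3.58.1 in R 4.3.3 (lmFit, eBayes with an intensity trend) on log2(signal + 16), with all 3 populations in 1 model, so that 2 samples per group share the spread. Adding 16 understates the change of low genes. Probe sets with a signal of 60 on at least 2 of 6 arrays were tested (23285 of 36701). Benjamini-Hochberg adjustment ran over all of them, with a threshold of 0.05. The highest unspiked control was 45.2 on U74A, 122.7 on U74B and 148.7 on U74C. A signal of 60 thus lies within the range of the controls on U74B and U74C. Some low signals given above do too, such as Hcst (120.3, U74B) and Ets1 (106.2, U74C) in cDC replicate 2. P-values measure the spread between samples, part of which may be technical. The fit was tested on simulated data. If neither array of a group reached 60, the fold is a bound against 60.

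Symbols came from the platform annotation, updated through a GRCm38.p6 gene table. A gene of a list is represented by its tested probe set of highest mean signal, and others can differ. The rule named every Ly49 probe set and, of each partner list, up to 5 genes past the threshold with the smallest adjusted p in IKDC versus cDC, or the 2 of highest mean signal where none passed. The members and lists were chosen with earlier results of these data known. Alternatives were the pseudocount, the filter, the normalization, the fit and leaving out samples. Protein sequences were not used here.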

Additional observations from a re-analysis of the deposited data

How the results depend on the processing

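Over all alternatives run, 7 to 8 Ly49 probe sets passed in IKDC versus cDC, 6 to 8 in IKDC versus PDC and 0 in PDC versus cDC. The lowest counts came from leaving out an IKDC sample. With a filter at 200 only 7 were tested. Klra3 differed between IKDC and cDC by 3.60 to 4.07 (log2, adjusted p 3.91e-08 to 0.00107) over 16 alternatives. Counts over all probe sets moved more without 1 sample, to 593 to 1656 in IKDC versus cDC, 327 to 719 in PDC versus cDC and 493 to 869 in IKDC versus PDC. The replicate numbers in the titles were not shown to pair the samples, since same-numbered deviations correlated at -0.09 to 0.24. With the replicate number as a block 8 Ly49 probe sets passed in each comparison of IKDC. The same block gave, in PDC versus cDC, 2 called genes of the inhibitory, the activating and the receptor list each, and 5 genes of the activating list in IKDC versus PDC.

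Small list counts moved easily, and the cause was not tested. For inhibitory signalling in IKDC versus cDC the count was 1 with a pseudocount of 1, no filter, quantile normalization, median centring or no intensity trend, 4 with only the 2 groups compared, and 1 to 4 without 1 sample. In IKDC versus PDC that list gave 2 with a filter at 200, 0 with median centring or no trend, and 0 to 1 without 1 sample. In PDC versus cDC it gave 1 to 2 without 1 sample. For activating signalling in PDC versus cDC the count was 2 with a filter at 200 or adjustment within array types and 1 to 2 without 1 sample. For the other receptors there it was 2 with a pseudocount of 64 or adjustment within array types, and 0 with median centring, only the 2 groups or any sample left out. For natural killer markers there it was 0 with median centring, only the 2 groups, no trend or any sample left out. For transcription factors it was 1 to 3 there and 1 to 2 in IKDC versus cDC without 1 sample.

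Sign changes were limited to small values that passed no test. In PDC versus cDC Klra6 was 0.016 with quantile normalization and -0.588 to 0.427 without 1 sample. In the same comparison, without 1 sample, Klra5 was -0.631 to 0.371, the Klra7 probe set 97761_f_at -0.666 to 0.461 and Klra9/Klra8 -0.003 to 0.601. In IKDC versus cDC, without 1 sample, H2-K1 was -0.034 to 0.25 and Tyrobp -0.26 to 0.651. Median centring moved the median of all probe sets in IKDC versus cDC to 0.11. Signals near the level of the unspiked controls limit what can be said of Ly49 transcripts in cDC and PDC.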
